A study of Saccharomyces cerevisiae with 2 samples.

Results

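The genes described here are the multicopy families that lie mostly near yeast chromosome ends or are known for growth without oxygen: the PAU, DAN and TIR cell wall genes, the COS, YRF1, FLO, MAL and AAD families, and the IMD, SNO and SNZ families. The families were chosen with earlier results of these data known. Their members were taken by gene name, as probe sets whose annotated symbols all carry one of these family names and a number. This gave 63 probe sets with a single symbol, for 42 genes, out of 6504 single-symbol probe sets for 5656 genes on the array. A further 28 probe sets listed several family members at once and are given as shared, and 24 listed family members together with other genes and were not counted as members. The RefSeq annotation (assembly R64) has 78 genes with such names. Of these, 42 had a probe set of their own, 35 were seen only through a shared probe set, and SNO4 only through one it shares with HSP32 and HSP33.

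The samples are 2 replicate cultures of budding yeast (Saccharomyces cerevisiae) carrying histone H3 K4,36,79R, in which arginine replaces the lysines at positions 4, 36 and 79, at 18 hours after a move from galactose to glucose in selective medium. Glucose shut off the wild-type H3 gene, so that the mutant was left as the only H3 source. Both arrays belong to 1 group. Wild-type cultures and other times were not analysed here, so every value below is a level in the mutant and none is a change caused by it. Per the labels' protocols the RNA was total RNA, labelled with biotin after conversion to cRNA. The sources used here do not give the strain background or the way the H3 copies were carried.

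Many of these families grew by duplication near chromosome ends, where copies stay much alike. PAU genes encode seripauperins, small serine-poor proteins, and DAN and TIR genes encode serine-rich mannoproteins of the cell wall. Many of these cell wall genes are known to be repressed by oxygen and haem through Rox1, Mot3 and the Tup1-Cyc8 corepressor, and to be switched on in anaerobic cells by Upc2. COS genes encode membrane proteins with a role in sorting other membrane proteins for degradation, and YRF1 genes are helicase-like reading frames inside the Y' repeats next to the telomere. FLO genes encode flocculins, the adhesins that make cells clump. MAL genes handle maltose, and IMD genes encode IMP dehydrogenase for guanine nucleotides. The SNZ genes and SNO1 to SNO3 make vitamin B6, and AAD genes encode putative aryl-alcohol dehydrogenases. Telomere-proximal silent chromatin depends in yeast on histone modification, including methylation by Dot1.

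A MAS5 signal is a linear intensity in arbitrary units, 1 per probe set. Where a pair of signals is given for a probe set, the first is that of replicate 1 and the second that of replicate 2, and a mean is over these 2 arrays. Probe sets bind with different strength, so signals of different genes do not give the order of their transcript levels. To say where a signal lies on the array, each probe set was placed among the 6504 single-symbol ones by its mean signal. The brightest 25% started at 79.0, the dimmest 25% ended at 15.9 and the median was 35.2. By construction 25% of all single-symbol probe sets fall in each of these ranges. Of the 63 member probe sets, 24 were in the brightest 25% and 21 in the dimmest 25%. With the brightest probe set of each gene, 22 of 42 genes were in the brightest 25% and 7 in the dimmest 25%, against 26.8% and 19.0% of all 5656 genes treated the same way. Members have more probe sets per gene (63 for 42) than the array has (6504 for 5656). Taking the brightest can therefore raise members more. The median signal of the 63 was 53.2, and that of all single-symbol probe sets was 35.2. Background was the 95th percentile of 13 probe sets for foreign sequence, 1.86 on replicate 1 and 1.69 on replicate 2. It was exceeded on both arrays by 58 of the 63 members and by 96.3% of all single-symbol probe sets. Passing it is therefore a weak sign of expression.

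The probe sets of the families divided by signal. IMD (5 of 6 probe sets), TIR (4 of 4) and PAU (7 of 10) lay mostly in the brightest 25%, and so did the single SNZ1 probe set. Most probe sets of COS (9 of 16, for 8 genes) and FLO (9 of 14, for 5 genes) lay in the dimmest 25%. Each also had 2 in the brightest 25%. These counts repeat genes, since FLO10 has 7 probe sets, COS10 4 and FLO5 3. By the brightest probe set of each gene, only FLO5, COS10, COS12 and COS111 lay in the dimmest 25%. FLO1, FLO11, COS4 and COS6 lay in the brightest 25% and the others between. Of the shared probe sets, 4 of 7 for COS and 3 of 3 for FLO were in the brightest 25%. MAL had 1 of 4 and AAD 2 of 5 in the brightest 25%, while DAN and SNO had none. The YRF1 family was measured by shared probe sets alone, and both were in the dimmest 25%. None of this was tested, because the arrays form 1 group and the probe sets differ in affinity.

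**Figure D1:**
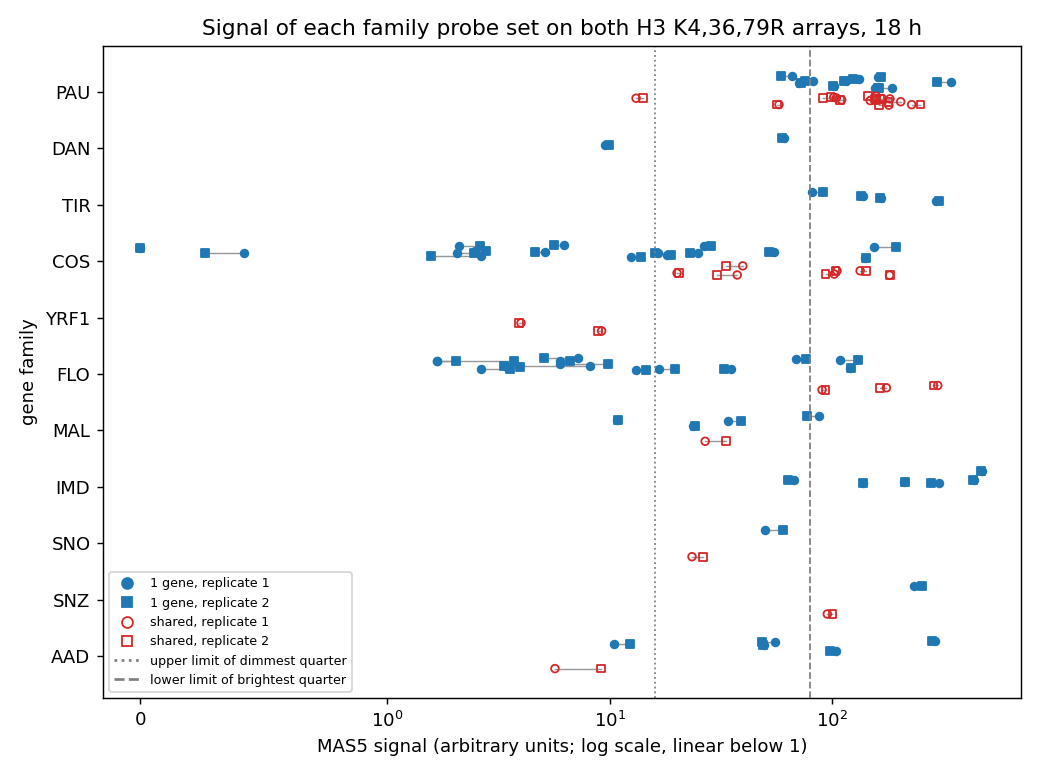
Signal of every member probe set on replicate 1 (circles) and replicate 2 (squares), by family, on a log axis that is linear below 1; filled symbols have 1 gene and open symbols are shared by several members. The grey lines at 15.9 and 79.0 bound the dimmest and the brightest 25% of single-symbol probe sets: PAU, TIR and IMD lie mostly to the right of 79.0, and most single-gene COS and FLO probe sets lie to the left of 15.9.

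Among the seripauperins, PAU23 (YLR037C) had the highest signal, with 339.8 and 296. Next was PAU4 (YLR461W), with 186 and 160.0. For both the value on replicate 2 was the lower one, by 1.15-fold for PAU23 and 1.16-fold for PAU4. PAU7 had 161 and 166. PAU13 had 156 and 162. PAU10, with 132 and 124, PAU17, with 115 and 113, and PAU16, with 102 and 100.3, made up the rest of the brightest 25%. PAU19 lay just under that range, with 81.5 and 75.0. The lowest were PAU3, with 70.7 and 72.0, and PAU15, with 65.7 and 58.7. Even these were above the array median on both replicates. The span of the 10 mean signals, from 62.2 to 318, was far wider than any difference between the arrays for 1 probe set, yet it mixes level with affinity and was not tested.

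Most PAU signals cannot be tied to 1 gene with certainty. All 10 single-symbol PAU probe sets are of the family kind (suffix _f_at), whose probes can match several related transcripts, so that a signal annotated to 1 PAU gene can include others, which was not tested. The 12 shared PAU probe sets list between 2 and 8 genes each, 19 genes in all, and 10 of them were in the brightest 25%. The brightest, for PAU5 and PAU7, had 227 and 248. The next, which lists 8 genes from PAU1 to PAU14, had 203 and 179. A probe set for PAU6, PAU18 and PAU20 gave 57.5 and 56.5. The dimmest was the one for PAU19, PAU21 and PAU22, with 13.1 and 14.1. It is also the PAU probe set without the family suffix, and PAU19 has a brighter family probe set of its own, so the readings of PAU19 differ by probe set. On replicate 2, 9 of the 12 shared and 7 of the 10 single-symbol PAU probe sets were the lower ones, with median log2 differences of -0.08 and -0.05. Probe sets that share targets are not independent, and these counts are a description of 2 arrays.

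The TIR and DAN genes all have plain probe sets (suffix _at with no letter before it), though the suffix alone does not make a probe set specific, since plain ones with up to 18 listed genes exist among the mixed YRF1 probe sets. TIR1 (YER011W), a mannoprotein also known from cold shock, had 292 and 301, at the 93.8th percentile of single-symbol probe sets. TIR2 had 165 and 164, and its neighbour TIR4 had 137 and 135. TIR3 had 81.2 and 90.6, just inside the brightest 25%. The 4 TIR genes differed by at most 1.12-fold between the arrays. DAN1 (YJR150C), the gene best known for being silent in air and strongly expressed without it, had 9.54 and 9.90, at the 15.7th percentile. DAN4, its direct neighbour, had 60.9 and 59.6. The DAN pair thus lay apart, DAN1 in the dimmest 25% and DAN4 between the outer ranges.

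The genes that control this group were read from a list of related genes. ROX1, the haem-dependent repressor of hypoxic genes, had 36.5 and 38.4. MOT3, a second repressor, had 10.6 and 12.2, and UPC2, the activator of anaerobic and sterol genes, had 6.13 and 7.45, both in the dimmest 25%. The UPC2 paralogue ECM22 had 65.5 and 52.2. TUP1 had 79.7 and 84.1 and CYC8, its corepressor partner, had 48.8 and 34.6. SUT1, a regulator of sterol uptake, had 16.0 and 16.0. HAP1, the haem-responsive activator, had 354 and 276, on a family-kind probe set. CYC8 and HAP1 were 1.41-fold and 1.28-fold lower on replicate 2, while ROX1 and TUP1 differed by 1.05-fold each. None of the 8 passed 1.5-fold.

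A list of other genes linked to oxygen supply, sterols or the cell wall covered the whole range. Each list gene, here and below, was taken by its brightest probe set. Of all 5656 genes taken so, 26.8% were in the brightest 25% and 19.0% in the dimmest 25%, with a median of 39.3. Of the 17 list genes measured, 6 were in the brightest 25% and 1 in the dimmest 25%, with a median of 55.2. The bright ones include CWP1 and CWP2, mannoprotein genes known for the wall of aerated cells and so no hypoxic genes. CWP2 had 1072 and 1019.9 and CWP1 had 268 and 307. NCE103, the carbonic anhydrase, had 568 and 649, and OLE1, the fatty acid desaturase, had 283 and 296. ANB1, the hypoxic form of the translation factor eIF5A, had 57.7 and 52.6. HES1, an oxysterol-binding protein gene, was the dimmest, with 5.03 and 4.95. ANB1, like DAN1, is a classic target of repression in air, and it lay between the outer ranges. Other hypoxic genes of the list did not all lie there. CYC7 had 115.0 and 115.4, in the brightest 25%. HEM13 had 65.7 and 54.8, AAC3 had 40.3 and 34.3 and COX5B had 29.1 and 33.1, all between the outer ranges.

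The COS genes showed how far probe sets of 1 family can part. COS6 (YGR295C) had 153 and 192 on a plain probe set, 1.26-fold higher on replicate 2. COS4 had 140.4 and 142 on a family-kind probe set. COS7 had 54.8 and 51.6 on one such probe set and was listed at 0 on both arrays by another, for which no fold is given. The 3 COS8 probe sets lay close together, with means from 16.2 to 23.9. COS9 spanned 2.09 to 27.5 over its 3 probe sets, and COS10 spanned 0.340 to 4.84 over 4. COS12 had 6.19 and 5.63. The 3 COS probe sets not above background on both arrays were 1 each for COS7, COS9 and COS10.

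Of the 7 shared COS probe sets, 4 were in the brightest 25% and none in the dimmest 25%. The brightest, for COS1, COS4 and COS6, had 181 and 182, and one for COS1, COS2, COS3 and COS4 had 133 and 141. A pair for COS2 and COS3 had 105 and 103 in one case and 102 and 93.1 in the other. These 4 were the ones in the brightest 25%, and between them they list COS1, COS2, COS3, COS4 and COS6. The 3 probe sets for COS5 and COS7 had means from 20.3, the dimmest of the shared ones, to 36.4. COS111 matches the naming rule but is no member of the COS family (its name refers to ciclopirox sensitivity). It had 2.10 and 2.61, near background, and leaving it out gave COS a median of 13.2 in place of 9.54.

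The Y' helicase family gave low values where the probe sets were its own. The probe set listing all 8 YRF1 genes had 9.17 and 8.86, and the one listing all but YRF1-4 had 3.98 and 3.91. Both exceeded the foreign-probe background on both arrays. Another 22 probe sets list YRF1 genes together with uncharacterised reading frames, most of them of the same repeat, and they ran from 1.33 to 334. Of these, 7 were in the brightest 25%, with means of at least 143, and 11 in the dimmest 25%. The one that was brightest by mean had 371 and 297. Which reading frame gave the bright signals cannot be told from the annotation, and these probe sets are not counted as members.

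FLO11 (YIR019C), the flocculin of biofilms and invasive growth, had 119.8 and 122 on a plain probe set, with the arrays 1.01-fold apart. FLO1, the dominant flocculin, had 109 and 131 on a probe set that is not plain (suffix _i_at), 1.20-fold higher on replicate 2. FLO8, the activator of FLO genes and so no flocculin itself, had 68.7 and 75.9 on one probe set and 1.68 and 2.03 on another, the second not above background on both arrays. The readings of its probe sets thus lay much further apart than the arrays did. RefSeq annotates FLO8 as a pseudogene in the reference strain.

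FLO10 and FLO5 were measured several times and mostly low. The 7 FLO10 probe sets ran from 2.69 to 33.7, and 5 of them were in the dimmest 25%. The brightest had 35.1 and 32.4. The 3 FLO5 probe sets had means of 3.08, 6.30 and 7.91, all in the dimmest 25%. In contrast, the probe set shared by FLO5 and FLO9 had 297 and 284. That shared by FLO1, FLO5 and FLO9 had 175 and 164, and that shared by FLO1 and FLO5 had 89.8 and 93.0. All 3 were in the brightest 25%, so probe sets listing FLO5 alone were dim and those listing it with FLO1 or FLO9 were bright. Which of the listed genes gave the shared signal cannot be told. FLO9 has no probe set of its own.

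**Figure D2:**
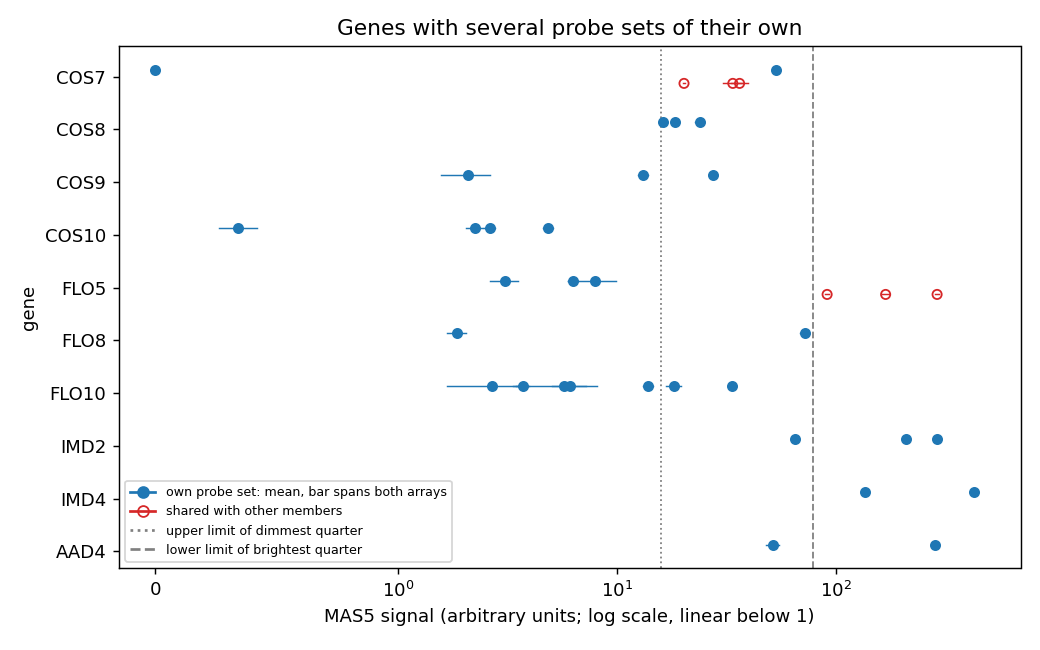
Mean signal of each probe set of the genes with several of their own (filled), with bars spanning both arrays, and of the probe sets those genes share with other members (open). Axis and grey lines are as for the families: FLO8, FLO10, COS9 and COS10 each have a lowest probe set that was not above background on both arrays, COS7 includes a probe set listed at 0, and the open FLO5 symbols lie to the right of all filled ones.

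Of the genes that regulate flocculation or relate to it, 2 of 10 were in the brightest 25% and 2 in the dimmest 25%. TEC1, a transcription factor of invasive growth, had 110.3 and 92.2, the highest of 10 related genes, followed by AGA1, an agglutinin anchor, with 92.4 and 87.4, and FIG2, a mating adhesin, with 66.7 and 67.8. STE12, which acts with Tec1, had 48.4 and 43.6, MSS11, which acts with Flo8, had 21.5 and 15.4 and the repressor SFL1 had 13.4 and 12.7. PHD1, an activator of pseudohyphal growth, had 32.0 and 48.6, 1.52-fold higher on replicate 2. The glucose-linked repressor genes NRG1 and NRG2 had 40.6 and 34.7 for NRG1 and 62.2 and 60.3 for NRG2, and MGA1 had 7.76 and 7.30. PHD1 was the 1 gene of this list past 1.5-fold.

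Genes for maltose use had 1 of 4 probe sets in the brightest 25% and 1 in the dimmest 25%. MAL11, an alpha-glucoside permease, had 87.1 and 76.6, inside the brightest 25% by its mean, with replicate 2 under the limit of 79.0. MAL31, the maltose permease, had 33.9 and 38.7, and the maltase probe set shared by MAL12 and MAL32 had 26.8 and 33.2. The activator gene MAL33 had 23.6 and 24.2 and its relative MAL13 had 10.8 and 10.9. A probe set listing MAL33 and YPR196W had 90.9 and 109, higher than that of MAL33 alone. Of 10 other genes listed for alpha-glucoside use or sugar control, 5 had a probe set of their own. None of these was in the brightest 25%. SUC2, for invertase, had 70.7 and 60.4, MIG1, the glucose repressor, had 31.1 and 29.9, and IMA1, an isomaltase, had 26.7 and 21.4. Replicate 2 had the lower signal for all 5 (median of the log2 differences -0.23), and none passed 1.5-fold.

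IMD probe sets had the highest median of the families with several single-symbol probe sets, 250.3. IMD3 (YLR432W) had 469.7 and 464, at the 96.7th percentile. IMD4 had 432 and 426 on one plain probe set and 137 and 137 on the other. IMD2, the isoform induced when guanine nucleotides run short, had 302 and 278 on its brightest probe set. Its other probe sets had 209 and 213 in one case and 66.9 and 62.8 in the other. The arrays differed by at most 1.08-fold on these probe sets, while probe sets of 1 gene differed by more. The IMD2 and IMD3 probe sets are of the family kind, so the isoforms may share signal. IMD2 lies 3 genes from its chromosome end, and IMD3 and IMD4 lie 32 and 78 genes in.

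A list of other nucleotide genes was looked at beside them. It holds GUA1, GUK1 and the salvage gene HPT1 for guanine nucleotides, PRS1, PRS3 and PRS5 for the ribose precursor of all nucleotides, ADE12 for AMP, and the pyrimidine genes SDT1 and FUR4. Of 9 measured, 7 were in the brightest 25% and none in the dimmest 25%, with a median of 145. GUA1, GMP synthetase, had 278 and 334, ADE12, adenylosuccinate synthase of the branch to AMP, had 296 and 297, and GUK1, guanylate kinase, had 286 and 275. HPT1 had 143 and 147. SDT1, a pyrimidine nucleotidase, had 50.4 and 53.5.

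The vitamin B6 genes have an internal pair and subtelomeric copies. SNZ1 (YMR096W), the synthase subunit of the internal pair, had 234 and 251. Its divergent partner SNO1, the glutaminase subunit, had 49.8 and 59.8. The subtelomeric copies were read together, SNZ2 with SNZ3 at 94.8 and 100.1, and SNO2 with SNO3 at 23.4 and 26.2. In both pairings the SNZ probe set had the higher signal, and all 4 were higher on replicate 2, by log2 differences from 0.08 to 0.27. SNO4, included by its name and not as a vitamin B6 gene, shares a probe set with HSP32 and HSP33. That probe set had 26.3 and 30.0. SNZ2 and SNZ3 are known to be controlled with thiamine genes. Of 16 thiamine and vitamin B6 genes with a probe set of their own, 4 were in the brightest 25%. PHO3, a thiamine-repressible phosphatase, had 446 and 477, and THI4, for the thiazole part of thiamine, had 169.9 and 181. PDX3, pyridoxine phosphate oxidase, had 159 and 162, and THI7, the thiamine transporter, had 121 and 103. The regulators had 15.6 and 16.3 for THI2, 38.8 and 40.3 for THI3 and 28.2 and 34.2 for PDC2.

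AAD4 gave the brightest AAD value, 290.2 and 281, on a probe set of the kind that several transcripts can share, and 55.3 and 48.0 on its plain one. AAD10 had 103 and 97.6 and AAD14 had 49.4 and 48.9. AAD6, annotated by RefSeq as a pseudogene, had 10.4 and 12.2. The probe set shared by AAD3 and AAD15 was dim, with 5.66 and 9.12, and 1.61-fold higher on replicate 2. AAD4 and AAD6 are known as targets of Yap1, the oxidative stress activator, and they held the brightest and the dimmest single-gene AAD probe sets. YAP1 itself had 39.2 and 41.2. Of 10 listed oxidoreductase and Yap1-linked genes, 7 were in the brightest 25%, led by OYE2, an NADPH dehydrogenase, with 398 and 407, TRX2, a thioredoxin, with 364 and 396, and ADH6, an NADPH-dependent alcohol dehydrogenase, with 279.7 and 288.

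**Figure D3:**
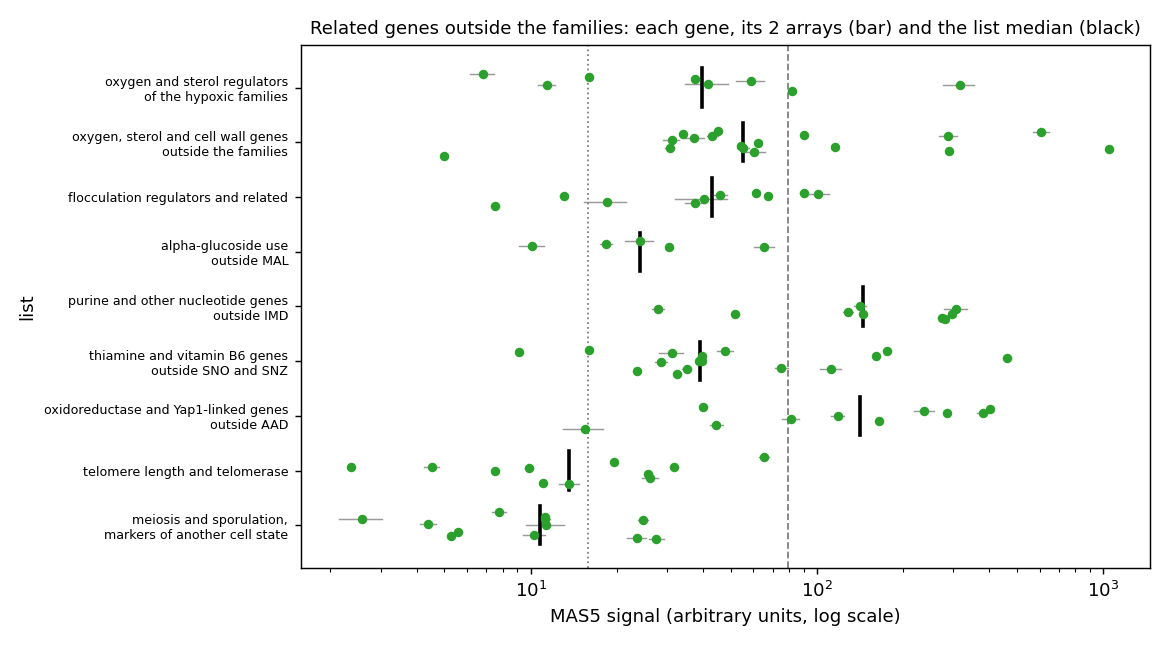
Signal of the related genes that are no family members, 1 row per list; each point is the mean of a gene's 2 arrays, the thin bar spans the arrays, the black tick is the list median, and the dotted and dashed lines at 15.9 and 79.0 bound the dimmest and brightest 25%. Medians of the nucleotide and Yap1-linked lists lie above 79.0, and those of the telomere and sporulation lists lie below 15.9.

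The label of these genes as subtelomeric holds for some families and not for others. Of 76 protein-coding members, 58 were among the 10 outermost protein-coding genes of a chromosome arm in the RefSeq order. All 8 YRF1 and all 6 MAL genes were, as were 19 of 24 PAU genes and 11 of 12 COS names. Of the genes of no member family with a probe set of their own, 177 were outermost in this way and 5250 lay further in. The 4 TIR genes lay between 56 and 177 genes in, and PAU23, the PAU gene with the highest signal, lay 100 genes in. SNZ1 and SNO1 lay 233 and 232 genes in. Of the 41 member probe sets for 24 outermost genes, 12 were in the brightest 25% and 14 in the dimmest 25%. Of the 19 for 16 genes further in, 12 were in the brightest 25% and 5 in the dimmest 25%. FLO8 and AAD6, annotated as pseudogenes, have no rank and are in neither range. Their probe sets had means of 72.3 and 1.85 for FLO8 and 11.3 for AAD6. The medians were 33.7 for the outermost and 121 for those further in. These counts and medians are over probe sets and not genes. The outermost ones repeat genes more often, with 7 probe sets for FLO10 and 4 for COS10. Among probe sets of no member family whose gene has a rank, 36 of 226 for outermost genes were in the brightest 25% and 102 in the dimmest 25%. The median of the 226 was 18.4, against 37.2 for the 6005 further in. Families are spread unevenly over these ranges: all 4 TIR probe sets are in the inner one and all 4 MAL ones in the outer. PAU, IMD and FLO have probe sets in both. Of the COS names, only COS111, no member of that family, is in the inner range. Among the 10 PAU probe sets, the 3 of inner genes (PAU7, PAU17 and PAU23) had means of 163, 114 and 318, and the 7 of outermost genes had means from 62.2 to 173, so the ranges overlap. Neither difference was tested.

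**Figure D4:**
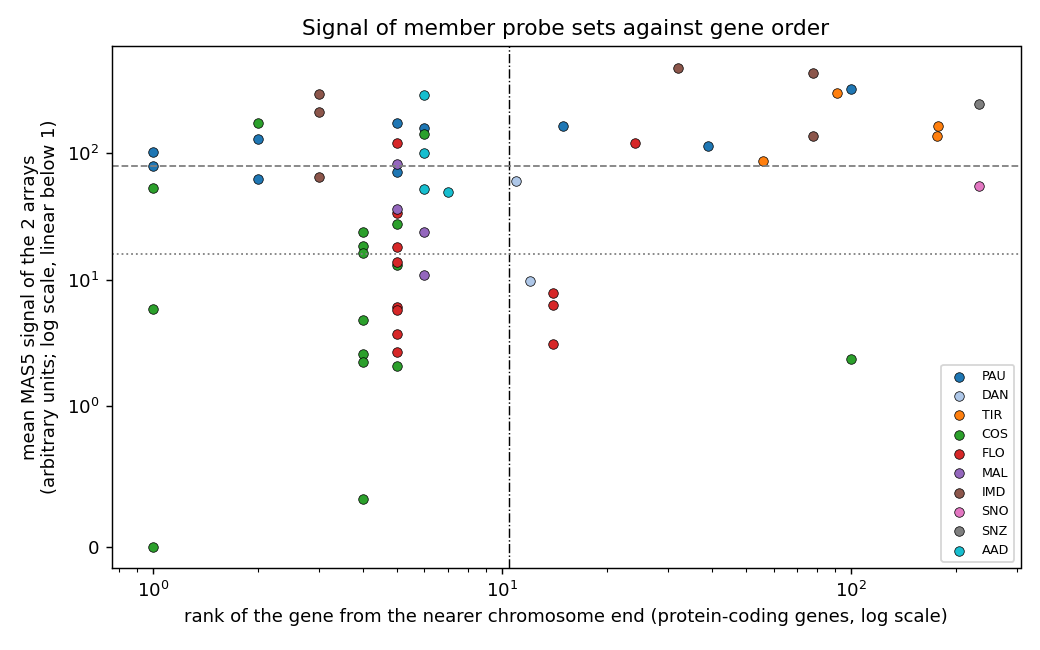
Mean signal of each single-gene member probe set against the rank of its gene from the nearer chromosome end, counted over protein-coding genes on a log axis; colours are families, the vertical line separates the 10 outermost genes, and the horizontal lines bound the dimmest and brightest 25%. Left of the vertical line the signals run from 0 to 289.9, and to its right the low points are FLO5, DAN1 and COS111.

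The arrays differed little on most members. Of 62 member probe sets above 0 on both arrays, 32 were higher and 30 lower on replicate 2. The median of their log2 differences was 0.01, against 0.0256 over all single-symbol probe sets. The sign of a median so near 0 turned under several other settings, among them median centring. Over 1.5-fold apart were 5 of the 62 (8.06%), against 265 (4.08%) of the 6497 single-symbol probe sets above 0 on both arrays. Of these 265, 15 were at or above the median signal of single-symbol probe sets. All 5 members were among the 27 below it, 18.5% of the 27. The 4.08% covers all signal levels, so it is no match for this share. Most of the 265 were below that median too. All 5 members had low signals. FLO10 had 8.13 and 3.34 on one probe set and FLO5 had 5.98 and 9.85. The other 3 were not above background on both arrays: FLO10 on another probe set, with 1.68 and 3.70, COS9 with 2.62 and 1.56 and COS10 with 0.419 and 0.261. Among the 35 members at or above the median of single-symbol probe sets, 0 passed 1.5-fold, against 0.461% of all 3252 such probe sets, and the SD of their log2 differences was 0.133, against 0.158 for all of them. With 1 array on each side, no difference between the arrays has a test.

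**Figure D5:**
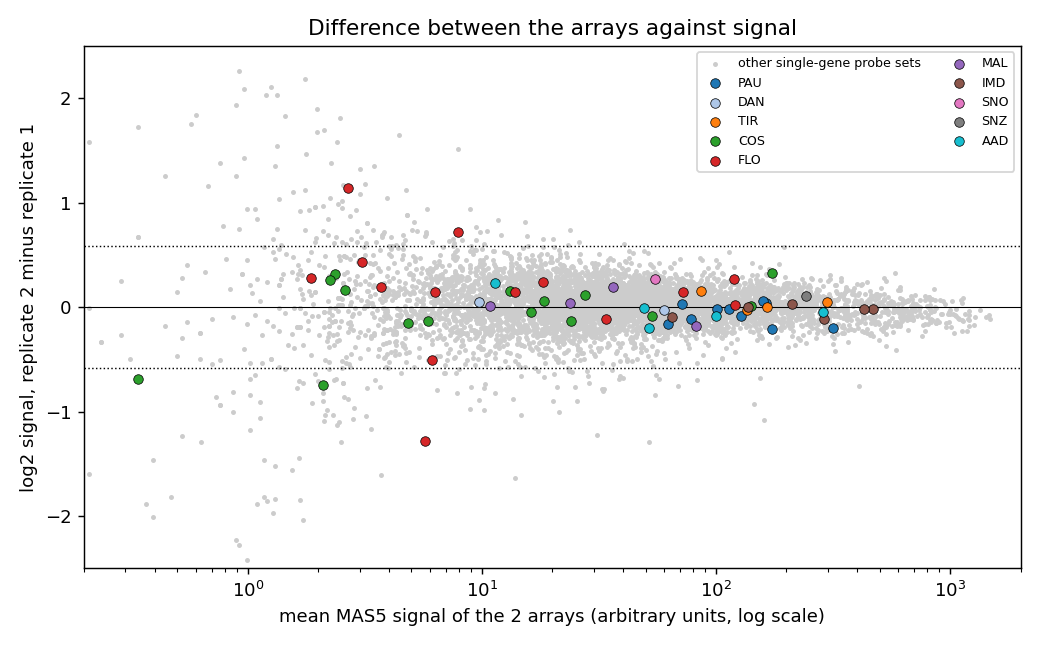
Log2 difference between the arrays (replicate 2 minus replicate 1) against mean signal on a log axis, for member probe sets coloured by family and for the other single-gene probe sets in grey; the dotted lines mark 1.5-fold, and 22 grey points beyond a log2 difference of 2.5 and 12 outside the signal range are not drawn. The 5 members outside the dotted lines are FLO and COS probe sets with mean signals under 10.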

How the data were processed

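Expression was measured on Affymetrix yeast arrays, 1 per culture. The authors' deposited values are linear intensity values, 1 MAS5 signal per probe set, per the submitters' processing notes. Neither its version nor its settings or scaling target are stated in the sources used here. MAS5 scales each array by 1 factor, which moves all genes of an array alike. The median signal over 9335 probe sets was 25.5 on replicate 1 and 25.7 on replicate 2. Depth does not apply, and the number of arrays limits the precision.

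Signals were used as deposited, with log2 taken for differences (pandas 2.3.3, Python 3.11.15). The platform annotation, which can be old, gave 1 symbol to 6504 probe sets, several to 328 and none to 2503. All 77 member symbols matched RefSeq R64, which served for names and gene order only. No genome build is named in the sources used here, so no coordinates are given. Background was the 95th percentile of 4 mouse and 9 antisense bacterial probe sets. Cyclic loess (limma 3.58.1) was 1 of the alternatives. The procedures were tested on simulated data.

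The text names every single-symbol member gene, the brightest and dimmest shared probe set of each family, any shared one over 1.5-fold apart, the regulators of each list and its 3 brightest genes (the brightest probe set of each gene). COS8, COS9, COS10, FLO5 and FLO10 are given by the range of their probe sets. Other shared probe sets, other list genes such as ANB1, CYC7, HES1, SDT1 and THI7, and the mixed probe sets were chosen after their values were seen. Members and lists were chosen with earlier results of these data known. No test between conditions was possible with 1 group.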

Additional observations from a re-analysis of the deposited data

How the results depend on the processing

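The number in the brightest 25%, 24, was 42 of 91 with shared probe sets added and 11 of 31 with plain _at probe sets alone. The number in the dimmest 25%, 21, was 7 of 42 with 1 probe set per gene and 11 of 31 with plain ones. The number above background, 58, was 29 of 31 with plain ones. The median signal, 53.2, was 64.9 with shared probe sets added, 83.9 with 1 per gene and 49.2 with plain ones. The 5 members over 1.5-fold apart became 1 with 1 per gene, 2 with plain ones, 0 with the filter at the median signal of all probe sets and 0 with an offset of 50.

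The median log2 difference, 0.01 (0.0133), has no settled sign: it was -0.0082 with shared probe sets added, -0.0082 with 1 per gene, -0.0015 with median centring, -0.0163 with the filter, -0.0015 without COS111 and FLO8, 0.0020 with cyclic loess and 0.0022 with the offset. With either array alone the counts were 59 to 60 above background, 23 to 25 in the brightest and 21 to 22 in the dimmest 25%, and the median signal 51.6 to 54.8. The median of the flocculation list, 43.2, was 44.5 to 46.1 with either array alone, and the FLO family median, 7.11, was 7.65 to 8.23. The alternatives for list and family medians, and the removal of COS111 and FLO8, were chosen after seeing the data. The other 55 comparisons of a summary result with an alternative kept their value within the set limits (1.5 times for a count, the spread between the arrays for a median). The limit for a count ignores the number of probe sets used, so 22 of 42 in the brightest 25% with 1 probe set per gene passed as kept. So did 27 in the brightest and 15 in the dimmest 25% with the limits set over all non-control probe sets. Differences between the arrays could not be had with an array left out. No paired analysis was possible because both arrays belong to a single group.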

Other observations

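In pairs of signals, replicate 1 stands before replicate 2. Of the telomere maintenance genes, which act where the Y' repeats lie, 11 were measured. Of these, 6 were in the dimmest 25% of single-symbol probe sets and none in the brightest 25%, with a median of 13.7. TEL1, a checkpoint kinase of telomeres, had the highest signal, 62.9 and 68.1. YKU70, a subunit of the Ku end-binding complex, had 30.7 and 32.7, and STN1, a capping protein, had 24.6 and 27.8. EST2, the catalytic subunit of telomerase, had 10.9 and 11.3. Genes of meiosis and sporulation, taken as markers of another cell state, had 9 of 12 in the dimmest 25%, with a median of 10.8. DIT1 had 29.1 and 25.9, SPS100 had 23.8 and 25.6, and IME2 had 21.7 and 25.4. IME1, the master inducer of meiosis, had 13.1 and 9.64. Taken alike by the brightest probe set, all 5656 genes had 26.8% in the brightest and 19.0% in the dimmest 25%, with a median of 39.3.

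Probe sets other than plain ones, that is with a letter before _at in the suffix (f, s, g, i, r or n), made up 32 of the 63 member probe sets, 50.8%, and 13.0% of all single-symbol probe sets. These shares are a description of the array design and were not tested.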
